A study of Chlamydomonas reinhardtii with 18 samples.

Results

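The genes described here responded differently to 24 h of darkness in tpt10b, a CreTPT10 knockout of the unicellular green alga Chlamydomonas reinhardtii, and in its wild type (WT, CC-4532 background). The quantity is the interaction: the tpt10b difference between 24 h and 0 h minus the WT difference between 24 h and 0 h, on the scale log2(TPM + 1). It was taken from 12 of the 18 libraries, 3 biological replicates in each of 4 groups, and was tested for 14731 of the 17693 genes in the table. A positive interaction means that the level at 24 h, relative to 0 h, was higher in tpt10b than in WT. A gene was sorted into an opposite class when darkness raised it in 1 genotype and lowered it in the other, and into a 1-genotype class when it responded in tpt10b only or in WT only. In all, 1477 genes, 10.03% of those tested, fell into such a class under both scalings of the data used below.

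The 4 groups were tpt10b after 24 h of darkness, tpt10b at 0 h, WT after 24 h of darkness and WT at 0 h. All cultures, of either genotype, grew to mid-log phase in TAP, an acetate-containing medium, under low light near 30 µmol photons m-2 s-1, and the 0 h cells were taken just before the move to darkness. Both genotypes also had 48 h dark samples, which enter the estimate of the spread but not the interaction itself. The mutant is represented by a single line, tpt10b, with no complemented line among the samples analysed here. TPM is the abundance of a gene's transcripts per length, scaled so that each library adds to the same total.

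In the dark with acetate, Chlamydomonas cells stop photosynthesis, draw energy from respiration of acetate and stored starch, and can switch to fermentation where oxygen runs short. Genes for the light reactions and pigment synthesis are known to be turned down, while those for catabolism and stress responses change with energy state. CreTPT10 belongs to the triose phosphate translocator family, membrane carriers that exchange phosphorylated sugars between compartments, so the comparison asks whether the dark response depends on this carrier gene.

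The locus taken from background knowledge to be CreTPT10, Cre08.g379350, checks the labels. In tpt10b it had 1.28, 2.94 and 1.39 TPM after 24 h of darkness and 8.28, 7.61 and 6.61 TPM at 0 h. In WT it had 38.2, 32.8 and 43.9 TPM after 24 h of darkness and 62.2, 55.4 and 57.2 TPM at 0 h. Every tpt10b library lay below every WT library at the same time, and at 24 h tpt10b minus WT was -3.81 on the log2 scale (limma adjusted p = 6.97e-09). The interaction of the locus itself was -1.01 ± 0.29 (SE, adjusted p = 0.00661) with TPM as deposited and -0.23 (adjusted p = 0.618) after rescaling, so its dark response was not called different under both.

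The libraries held 59603478 to 87965038 reads, recovered from TPM and coding length. In tpt10b at 24 h, 15490 to 16231 genes had reads, against 16630 to 16683 in tpt10b at 0 h, 16594 to 16679 in WT at 24 h and 16442 to 16564 in WT at 0 h. Replicates of tpt10b at 24 h correlated at 0.975 to 0.981 (Pearson, log2 values across genes) and those of the other 3 groups at 0.99 to 0.997. Genes for cytosolic ribosomal proteins took 39.4% of TPM on average in tpt10b at 24 h, 26.63% in tpt10b at 0 h, 35.66% in WT at 24 h and 31.73% in WT at 0 h. Genes of the plastid genome took 8.587%, 1.081%, 5.952% and 2.114% in the same 4 groups, with the 3 libraries of tpt10b at 24 h at 5.924 to 11.08%. Since these shares bear on the TPM of all other genes, results were computed on TPM as deposited and again after dividing each library by a median-of-ratios factor, here called rescaled. Less RNA of a gene per cell and fewer cells in a given state cannot be told apart in such culture samples.

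With TPM as deposited, 9456 genes (64.2% of those tested) had an interaction with a limma adjusted p under 0.05, 921 of them higher (6.25%) and 8535 lower (57.9%). After rescaling 6565 genes (44.6%) passed, 3740 higher (25.4%) and 2825 lower (19.2%). The median interaction over all genes was -0.65 as deposited, 0.07 rescaled and -0.01 after quantile normalisation, so higher calls made up 9.74%, 57% and 48.2% of all calls under the 3 scalings. Under both the deposited and the rescaled values, 921 genes (6.25%) were called higher and 2824 (19.2%) lower, whereas 181 genes were called with opposite signs. Because many calls were lost or turned round between the scalings, the classes below are restricted to genes placed in the same class under both. Just inside the threshold lay Cre10.g457297 with an interaction of -0.59 (adjusted p = 0.04999), and just outside it Cre06.g260350 with -0.37 (adjusted p = 0.0501).

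Among the classes, genes lowered by darkness in tpt10b were the most numerous under both scalings. Opposite responses comprised 27 genes (0.183% of those tested) up in tpt10b and down in WT, and 302 genes (2.05%) down in tpt10b and up in WT. Responses called in tpt10b alone comprised 104 genes up (0.706%) and 839 genes down (5.7%). Responses called in WT alone comprised 165 genes up (1.12%) and 40 genes down (0.272%). Dark changes taken singly were called higher in 18.1% and lower in 57.1% of genes in tpt10b, and higher in 40.6% and lower in 25.8% in WT, as deposited. After rescaling the shares were 34.2% higher and 38.1% lower in tpt10b, and 31.5% higher and 34.5% lower in WT. A response of 1 genotype meant a called interaction, a called dark change in that genotype, and a change in the other that was not called and was under 0.5 in size on the log2 scale. At that limit, the WT change of Cre13.g563900 was 0.4986, just inside, and that of Cre17.g718200 was 0.5017, just outside.

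**Figure D1:**
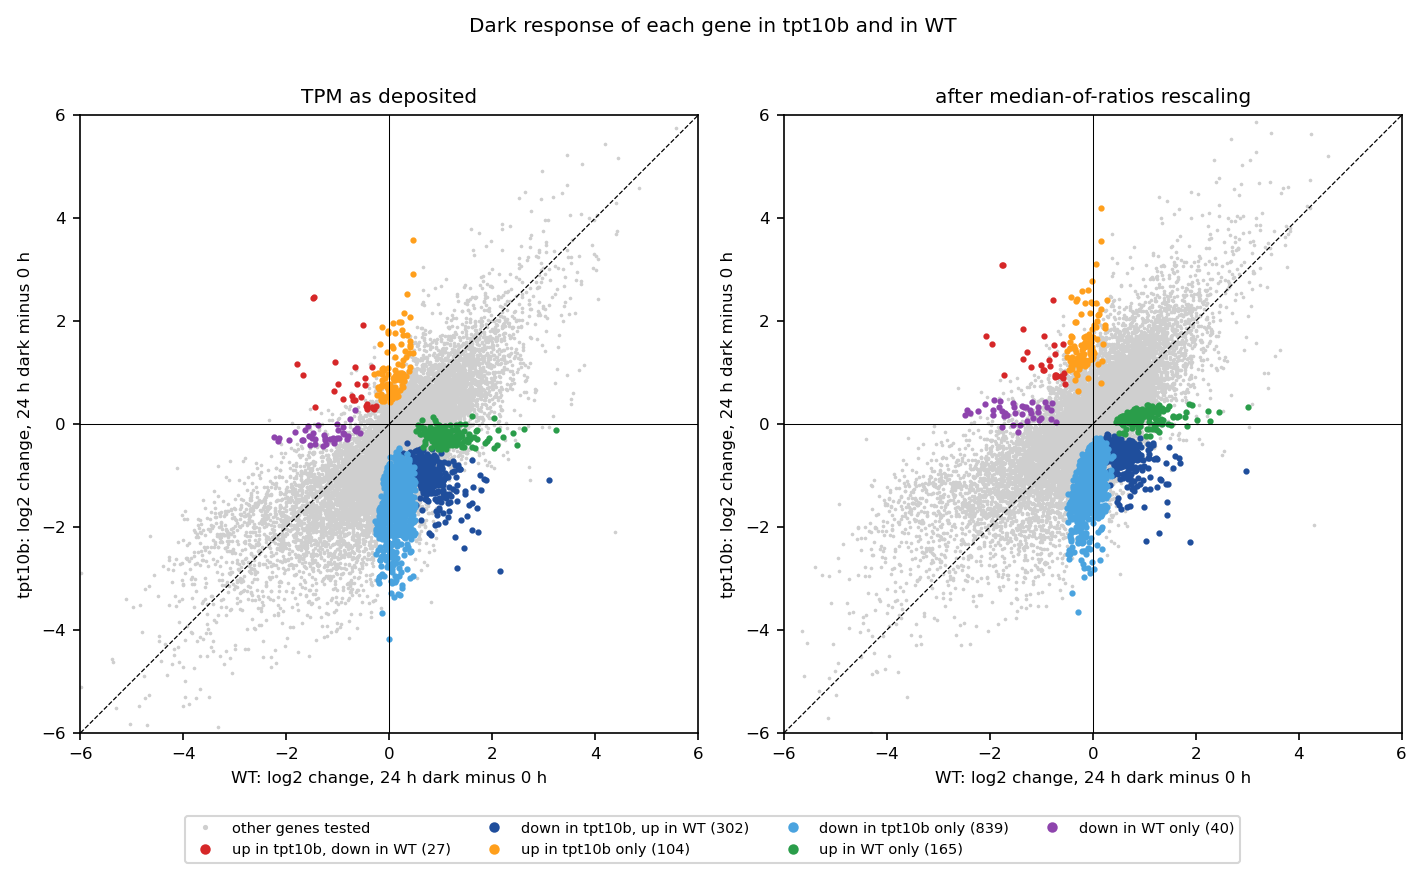
Dark change at 24 h (log2, 24 h minus 0 h) of every gene tested, with tpt10b on the vertical axis and WT on the horizontal axis, as deposited and rescaled; axes stop at 6 in either direction. Coloured points are the genes in the same class under both scalings, of which the 839 down in tpt10b only form the largest group; points on the dashed line changed equally in both genotypes.

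The scatter of dark changes shows how the scaling moved these counts. As deposited, the classes held 27, 1384, 140, 2902, 1816 and 105 genes, in the order in which they are given above. After rescaling they held 259, 302, 894, 1042, 554 and 730 genes. A class under both scalings cannot be larger than under either alone. The classes with a positive interaction were therefore capped by the deposited values, at 27, 140 and 105 genes. How small they were beside the classes with a negative interaction depends on the scaling. Rescaled alone, more genes were down than up in WT only. Leaving out any 1 of the 12 libraries kept each class's count under both scalings within 1.5 times, except that of the genes down in WT only, which numbered 61 without replicate 3 of tpt10b at 24 h, against 40 with it.

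The class raised in tpt10b and lowered in WT held 27 genes under both scalings, against 259 rescaled. Of the 27 genes, 4 carried a symbol of their own and reached a mean of 5 TPM. They were NRX3, a nucleoredoxin of the thioredoxin-like family, CGL91, a protein conserved across the green lineage, ALF1, and FAP334, a flagella-associated protein. For NRX3 the tpt10b libraries had 34.03, 22.2 and 25.2 TPM after 24 h of darkness and 20.3, 14.1 and 8.21 TPM at 0 h. The WT libraries had 16.96, 17.5 and 20.6 TPM after 24 h of darkness and 48.3, 70.3 and 65.97 TPM at 0 h. The 24 h libraries were all above the 0 h libraries in tpt10b and all below them in WT. The dark change was 0.95 ± 0.24 in tpt10b and -1.68 ± 0.24 in WT (log2, SE), giving an interaction of 2.63 ± 0.34 as deposited (adjusted p = 2.61e-05) and 3.51 rescaled (adjusted p = 1.14e-05).

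CGL91 was the most abundant of the 4. In tpt10b it had 172, 142 and 144 TPM after 24 h of darkness and 78.2, 63.7 and 55.3 TPM at 0 h, and in WT 106, 94.1 and 122 TPM after 24 h of darkness and 183, 248 and 249.8 TPM at 0 h. At 0 h its tpt10b libraries lay below all WT libraries, and at 24 h above them. The interaction was 2.28 ± 0.27 (adjusted p = 1.78e-05). ALF1 had 79.3, 57.6 and 76.4 TPM after 24 h of darkness and 42.1, 41.01 and 38.5 TPM at 0 h in tpt10b, and 39.3, 31.8 and 39.8 TPM after 24 h of darkness and 57.99, 79.6 and 89.2 TPM at 0 h in WT. Its dark change was 0.78 ± 0.20 in tpt10b and -0.996 ± 0.20 in WT, an interaction of 1.78 (adjusted p = 1.04e-04). FAP334 averaged 13.6 ± 0.673 TPM at 24 h and 9.51 ± 0.477 TPM at 0 h in tpt10b, and 10.2 ± 1.42 TPM at 24 h and 16.9 ± 3.28 TPM at 0 h in WT (SD, n = 3), with an interaction of 1.14 (adjusted p = 4.24e-04). All 4 stayed in their class in each of the 12 fits that left out 1 library.

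The reverse class, lowered in tpt10b and raised in WT, held 302 genes, 33 of them with a symbol of their own and at least 5 TPM. Its largest interaction among these was that of MEI2, a member of the Mei2-like RNA-binding protein family. MEI2 had 1.01, 3.22 and 2.59 TPM after 24 h of darkness and 9.22, 8.38 and 7.25 TPM at 0 h in tpt10b. It had 10.4, 18.7 and 14.2 TPM after 24 h of darkness and 5.11, 3.31 and 4.23 TPM at 0 h in WT. In tpt10b every dark library was below every 0 h library, and in WT every dark library was above. The dark change was -1.56 ± 0.33 in tpt10b and 1.55 ± 0.33 in WT, and the interaction -3.11 ± 0.46 as deposited (adjusted p = 6.42e-05) and -2.36 rescaled (adjusted p = 3.37e-04).

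MARS1 is a cytosolic kinase required for the chloroplast unfolded protein response, the signal from damaged plastid proteins to nuclear genes. It had 2.24, 2.45 and 2.48 TPM after 24 h of darkness and 14.8, 13.6 and 12.5 TPM at 0 h in tpt10b, and 10.8, 17.2 and 12.8 TPM after 24 h of darkness and 8.71, 6.497 and 7.203 TPM at 0 h in WT. The separation in tpt10b was wide, while the WT libraries differed by a smaller margin, and the interaction was -2.88 ± 0.35 (adjusted p = 2.00e-05). MARS1 left the class in 4 of the 12 fits with 1 library left out. These were the fits without a WT library at 0 h or without WT replicate 2 at 24 h. With TPM as deposited, its interaction stayed called in all 12. ROC66, a component of the algal circadian clock, named from chloroplast rhythm mutants, had 2.402, 3.79 and 3.15 TPM after 24 h of darkness and 8.35, 8.39 and 7.97 TPM at 0 h in tpt10b. In WT it had 10.3, 12.7 and 11.7 TPM after 24 h of darkness and 5.15, 3.22 and 3.92 TPM at 0 h. Dark libraries of ROC66 were below the light libraries in tpt10b and above them in WT, with an interaction of -2.49 (adjusted p = 3.15e-05).

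LCI15, a gene known as inducible by low CO2, averaged 2.51 ± 1.64 TPM at 24 h and 7.62 ± 0.256 TPM at 0 h in tpt10b, and 12.7 ± 3.03 TPM at 24 h and 4.92 ± 1.16 TPM at 0 h in WT. Its interaction was -2.60 (adjusted p = 1.31e-04). GGT1 averaged 1.13 ± 0.301 TPM at 24 h and 4.18 ± 0.209 TPM at 0 h in tpt10b, and 7.57 ± 2.73 TPM at 24 h and 2.36 ± 0.172 TPM at 0 h in WT, with an interaction of -2.59 (adjusted p = 1.85e-04). CPL2, a gene conserved in the plant lineage, averaged 3.36 ± 0.126 TPM at 24 h and 11.4 ± 0.819 TPM at 0 h in tpt10b, and 26.9 ± 5.76 TPM at 24 h and 12.8 ± 1.32 TPM at 0 h in WT. At 0 h the CPL2 libraries of both genotypes overlapped, and its interaction was -2.51 (adjusted p = 2.62e-04). It left the class without WT replicate 1 or 2 at 0 h or WT replicate 2 at 24 h.

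**Figure D2:**
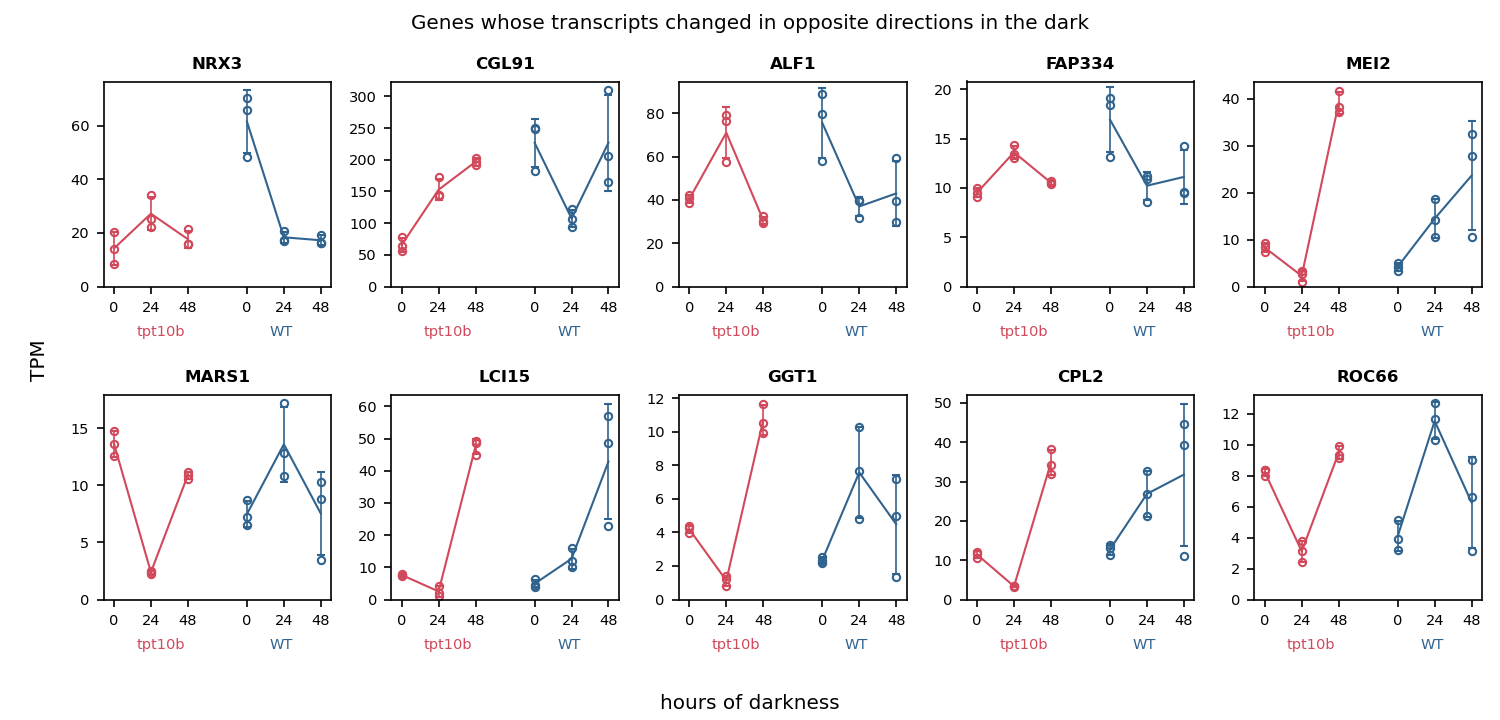
TPM (linear axis from 0) against hours of darkness for the 10 named genes with opposite dark responses, tpt10b left of WT in each panel. Circles are libraries, lines join the means of 3 libraries and bars are SD; in every panel the 24 h and 0 h libraries of a genotype are apart, in opposite order in tpt10b and WT.

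Genes raised by darkness in tpt10b only numbered 104, 0.706% of all genes tested. Of 74 plastid-encoded genes tested 7 were in the class, and of 72 genes for cytosolic ribosomal proteins 19 were. The ribosomal genes had 15 higher interactions after quantile normalisation, a share near the 20.1% for all genes under that scaling. The plastid gene petL, which codes for a small subunit of the cytochrome b6f complex, had 963, 569 and 514 TPM after 24 h of darkness and 74.3, 44.5 and 47.3 TPM at 0 h in tpt10b. In WT it had 263, 127 and 282 TPM after 24 h of darkness and 104, 223 and 158 TPM at 0 h. The WT times overlapped, and all 3 dark tpt10b libraries lay above every other library. The dark change was 3.58 ± 0.32 in tpt10b and 0.45 ± 0.32 in WT, an interaction of 3.13 ± 0.45 (adjusted p = 5.10e-05).

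The gene psaC, for the iron-sulfur subunit of photosystem I, had 1273, 1234 and 860.3 TPM after 24 h of darkness and 305, 225 and 225 TPM at 0 h in tpt10b, and 815, 533 and 869 TPM after 24 h of darkness and 469.7, 760.2 and 589 TPM at 0 h in WT. Only the tpt10b times were separated, at 0 h all tpt10b libraries were below the WT libraries, and at 24 h the genotypes overlapped. The interaction was 1.87 (adjusted p = 4.00e-04). The libraries lay in the same order for chlL, which codes for part of the dark-operative protochlorophyllide reductase and averaged 70.3 ± 23.5 TPM at 24 h and 19.5 ± 8.41 TPM at 0 h in tpt10b, and 88.1 ± 17.8 TPM at 24 h and 90.1 ± 23.4 TPM at 0 h in WT. The interaction of chlL was 1.83 (adjusted p = 0.00463). The photosystem II gene psbL averaged 2065 ± 700.3 TPM at 24 h and 517 ± 147 TPM at 0 h in tpt10b, and 1873 ± 434 TPM at 24 h and 1638 ± 358 TPM at 0 h in WT. The interaction of psbL was 1.79 (adjusted p = 0.00178). The plastid elongation factor gene tufA averaged 838 ± 456 TPM at 24 h and 237 ± 77.4 TPM at 0 h in tpt10b, and 569 ± 153 TPM at 24 h and 476 ± 142 TPM at 0 h in WT. The interaction of tufA was 1.47 (adjusted p = 0.0143). How the libraries captured organelle RNA is not given in the sources used here.

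The nuclear gene GPD2, for a glycerol-3-phosphate dehydrogenase, had 96.03, 55.9 and 87.8 TPM after 24 h of darkness and 27.9, 23.4 and 16.6 TPM at 0 h in tpt10b. It had 55.01, 57.8 and 65.4 TPM after 24 h of darkness and 52.05, 67.1 and 63.9 TPM at 0 h in WT. In WT the times overlapped, and in tpt10b they did not, with an interaction of 1.80 ± 0.27 (adjusted p = 6.42e-05). Without WT replicate 1 at 0 h, GPD2 and chlL left the class, and without WT replicate 2 at 24 h petL and psaC did. The class also lost petL without WT replicate 2 at 0 h.

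Genes lowered by darkness in tpt10b only formed the largest class, 839 genes, of which 105 had a symbol of their own and at least 5 TPM. NDA3, a type II NADH dehydrogenase that bypasses respiratory complex I, had 5.86, 9.696 and 6.66 TPM after 24 h of darkness and 73.2, 71.9 and 61.02 TPM at 0 h in tpt10b. Its WT values were 38.7, 76.2 and 50.7 TPM after 24 h of darkness and 57.1, 44.3 and 46.5 TPM at 0 h. The WT times overlapped, and each dark tpt10b library lay below every other library of the 4 groups. The dark change was -3.07 ± 0.34 in tpt10b and 0.11 ± 0.34 in WT, and the interaction was -3.19 ± 0.48 as deposited (adjusted p = 7.17e-05) and -2.30 rescaled (adjusted p = 4.02e-04).

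CYCAB1, a mitotic cyclin of the A/B type, had 0, 0.715 and 0.559 TPM after 24 h of darkness and 8.94, 12.4 and 10.2 TPM at 0 h in tpt10b, and 5.21, 12.1 and 7.82 TPM after 24 h of darkness and 10.7, 5.13 and 8.34 TPM at 0 h in WT. The interaction was -3.08 (adjusted p = 2.26e-04), and at 0 h the genotypes overlapped. RPP25, a subunit of the RNase P and MRP complexes that trim tRNA and rRNA precursors, had 1.57, 1.97 and 1.398 TPM after 24 h of darkness and 21.6, 20.03 and 20.2 TPM at 0 h in tpt10b, and 6.88, 11.9 and 7.96 TPM after 24 h of darkness and 13.97, 7.85 and 9.96 TPM at 0 h in WT. Its tpt10b levels fell to below all WT levels in the dark, with an interaction of -2.81 (adjusted p = 1.56e-04).

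The largest interaction of the class among named genes was that of PRR1, -3.41 ± 0.40 (adjusted p = 1.64e-05). PRR1 averaged 1.97 ± 1.04 TPM at 24 h and 21.1 ± 2.34 TPM at 0 h in tpt10b, and 23.2 ± 7.25 TPM at 24 h and 16.2 ± 1.72 TPM at 0 h in WT. SCPL49, a serine carboxypeptidase-like protein, averaged 0.967 ± 0.7805 TPM at 24 h and 9.51 ± 0.803 TPM at 0 h in tpt10b, and 7.87 ± 1.56 TPM at 24 h and 5.74 ± 1.32 TPM at 0 h in WT. The interaction of SCPL49 was -2.89 (adjusted p = 7.98e-05). TSS2 averaged 14.2 ± 1.23 TPM at 24 h and 87.2 ± 9.14 TPM at 0 h in tpt10b, and 65.5 ± 16.6 TPM at 24 h and 53.1 ± 9.72 TPM at 0 h in WT. The interaction of TSS2 was -2.82 (adjusted p = 3.35e-05). PRR1 left the class without WT replicate 1 at 0 h or at 24 h, RPP25 without WT replicate 2 at either time, and SCPL49 without WT replicate 1 at 0 h.

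Genes raised by darkness in WT only numbered 165, of which 10 had a symbol of their own and at least 5 TPM. MLH3, a MutL homologue of the DNA mismatch repair family, had 0.293, 1.98 and 0.735 TPM after 24 h of darkness and 0.5003, 0.815 and 0.884 TPM at 0 h in tpt10b. It had 5.92, 8.57 and 6.300 TPM after 24 h of darkness and 0.971, 0.854 and 0.908 TPM at 0 h in WT. The tpt10b times overlapped, while all dark WT libraries were above the WT light libraries, and the interaction was -1.91 ± 0.51 as deposited (adjusted p = 0.00404) and -1.47 rescaled (adjusted p = 0.0174). HSP70G, of the HSP70 chaperone family, had 44.2, 64.5 and 51.1 TPM after 24 h of darkness and 74.4, 65.9 and 66.3 TPM at 0 h in tpt10b, and 104, 120.1 and 112 TPM after 24 h of darkness and 44.6, 43.2 and 50.8 TPM at 0 h in WT. As deposited, its dark tpt10b libraries were also below the tpt10b light libraries, by a change of -0.38 ± 0.18 that was not called, against 1.26 ± 0.18 in WT. Rescaled, the HSP70G change was 0.24 in tpt10b, again not called, and 0.97 in WT.

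HIS7, a histidine synthesis gene, averaged 22.3 ± 7.95 TPM at 24 h and 29.7 ± 2.11 TPM at 0 h in tpt10b, and 38.5 ± 3.13 TPM at 24 h and 13.9 ± 1.63 TPM at 0 h in WT. The interaction of HIS7 was -1.86 (adjusted p = 1.77e-04). POC15, a protein found in the centriole proteome, averaged 1.42 ± 0.216 TPM at 24 h and 2.18 ± 0.365 TPM at 0 h in tpt10b, and 5.07 ± 0.528 TPM at 24 h and 1.34 ± 0.292 TPM at 0 h in WT. The interaction of POC15 was -1.77 (adjusted p = 1.72e-04). As for HSP70G, its dark tpt10b libraries lay below the tpt10b light libraries as deposited, by a change of -0.39 ± 0.22 that was not called. Rescaled, the POC15 change in tpt10b was 0.01, also not called. TSI3 averaged 25.8 ± 6.89 TPM at 24 h and 31.5 ± 6.07 TPM at 0 h in tpt10b, and 45.01 ± 4.69 TPM at 24 h and 15.02 ± 1.95 TPM at 0 h in WT. The interaction of TSI3 was -1.82 (adjusted p = 3.41e-04). RCE1 averaged 108 ± 53.3 TPM at 24 h and 122 ± 4.59 TPM at 0 h in tpt10b, and 293 ± 52.1 TPM at 24 h and 97.9 ± 11.6 TPM at 0 h in WT. The interaction of RCE1 was -1.85 (adjusted p = 7.02e-04). Under both scalings, RCE1 stayed in its class in 2 of the 12 fits that left out 1 library. HIS7 and TSI3 stayed in 9 each, HSP70G in 10, MLH3 in 11 and POC15 in 12. With TPM as deposited, the interaction of each stayed called in all 12, and this was not examined in the rescaled fits. Replicate 1 of tpt10b at 24 h was among the libraries without which MLH3, HIS7, TSI3 and HSP70G left the class.

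Genes lowered by darkness in WT only numbered 40, and 6 of them had a symbol of their own and at least 5 TPM. FAP366, a flagella-associated protein, had 2.901, 2.76 and 2.56 TPM after 24 h of darkness and 4.48, 3.27 and 2.898 TPM at 0 h in tpt10b. It had 1.95, 1.68 and 1.85 TPM after 24 h of darkness and 7.51, 13.4 and 14.6 TPM at 0 h in WT. The tpt10b times overlapped, and all 6 tpt10b libraries lay below the WT light libraries and above the WT dark libraries. The interaction was 1.87 ± 0.26 (adjusted p = 4.97e-05). The flagella-associated gene FAP398 averaged 15.2 ± 2.86 TPM at 24 h and 16.5 ± 1.91 TPM at 0 h in tpt10b, and 9.802 ± 1.52 TPM at 24 h and 32.97 ± 7.37 TPM at 0 h in WT. The interaction of FAP398 was 1.51 (adjusted p = 2.43e-04). For FAP208 the means were 6.46 ± 1.58 TPM at 24 h and 7.62 ± 1.04 TPM at 0 h in tpt10b, and 4.44 ± 0.883 TPM at 24 h and 15.1 ± 3.52 TPM at 0 h in WT (interaction 1.33, adjusted p = 8.15e-04).

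CCT8, a subunit of the cytosolic chaperonin that folds tubulin and actin, had 40.7, 31.4 and 38.7 TPM after 24 h of darkness and 45.5, 46.3 and 41.9 TPM at 0 h in tpt10b, and 26.02, 25.4 and 29.4 TPM after 24 h of darkness and 53.6, 55.03 and 68.5 TPM at 0 h in WT. As deposited, the dark libraries of CCT8 were below the light libraries in both genotypes. The change was -0.27 ± 0.14 in tpt10b, which was not called, and -1.10 ± 0.14 in WT. Rescaled, it was 0.35 in tpt10b, again not called, and -1.38 in WT. PFD4, a prefoldin subunit that hands unfolded tubulin and actin to that chaperonin, averaged 27.7 ± 9.004 TPM at 24 h and 32.6 ± 3.08 TPM at 0 h in tpt10b, and 17.7 ± 1.596 TPM at 24 h and 36.8 ± 5.18 TPM at 0 h in WT. The interaction of PFD4 was 0.73 (adjusted p = 0.0205). MOT19, of a gene group shared by motile species, averaged 17.3 ± 5.51 TPM at 24 h and 18.98 ± 0.886 TPM at 0 h in tpt10b, and 15.1 ± 2.24 TPM at 24 h and 29.2 ± 5.83 TPM at 0 h in WT. The interaction of MOT19 was 0.73 (adjusted p = 0.0254). PFD4 kept its class in 8 and MOT19 in 4 of the 12 fits with 1 library left out, and FAP398 in 9. With TPM as deposited, the interaction calls of PFD4 and MOT19 were lost without WT replicate 3 at 0 h or tpt10b replicate 1 at either time. That of MOT19 was also lost without WT replicate 1 or 2 at 24 h.

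**Figure D3:**
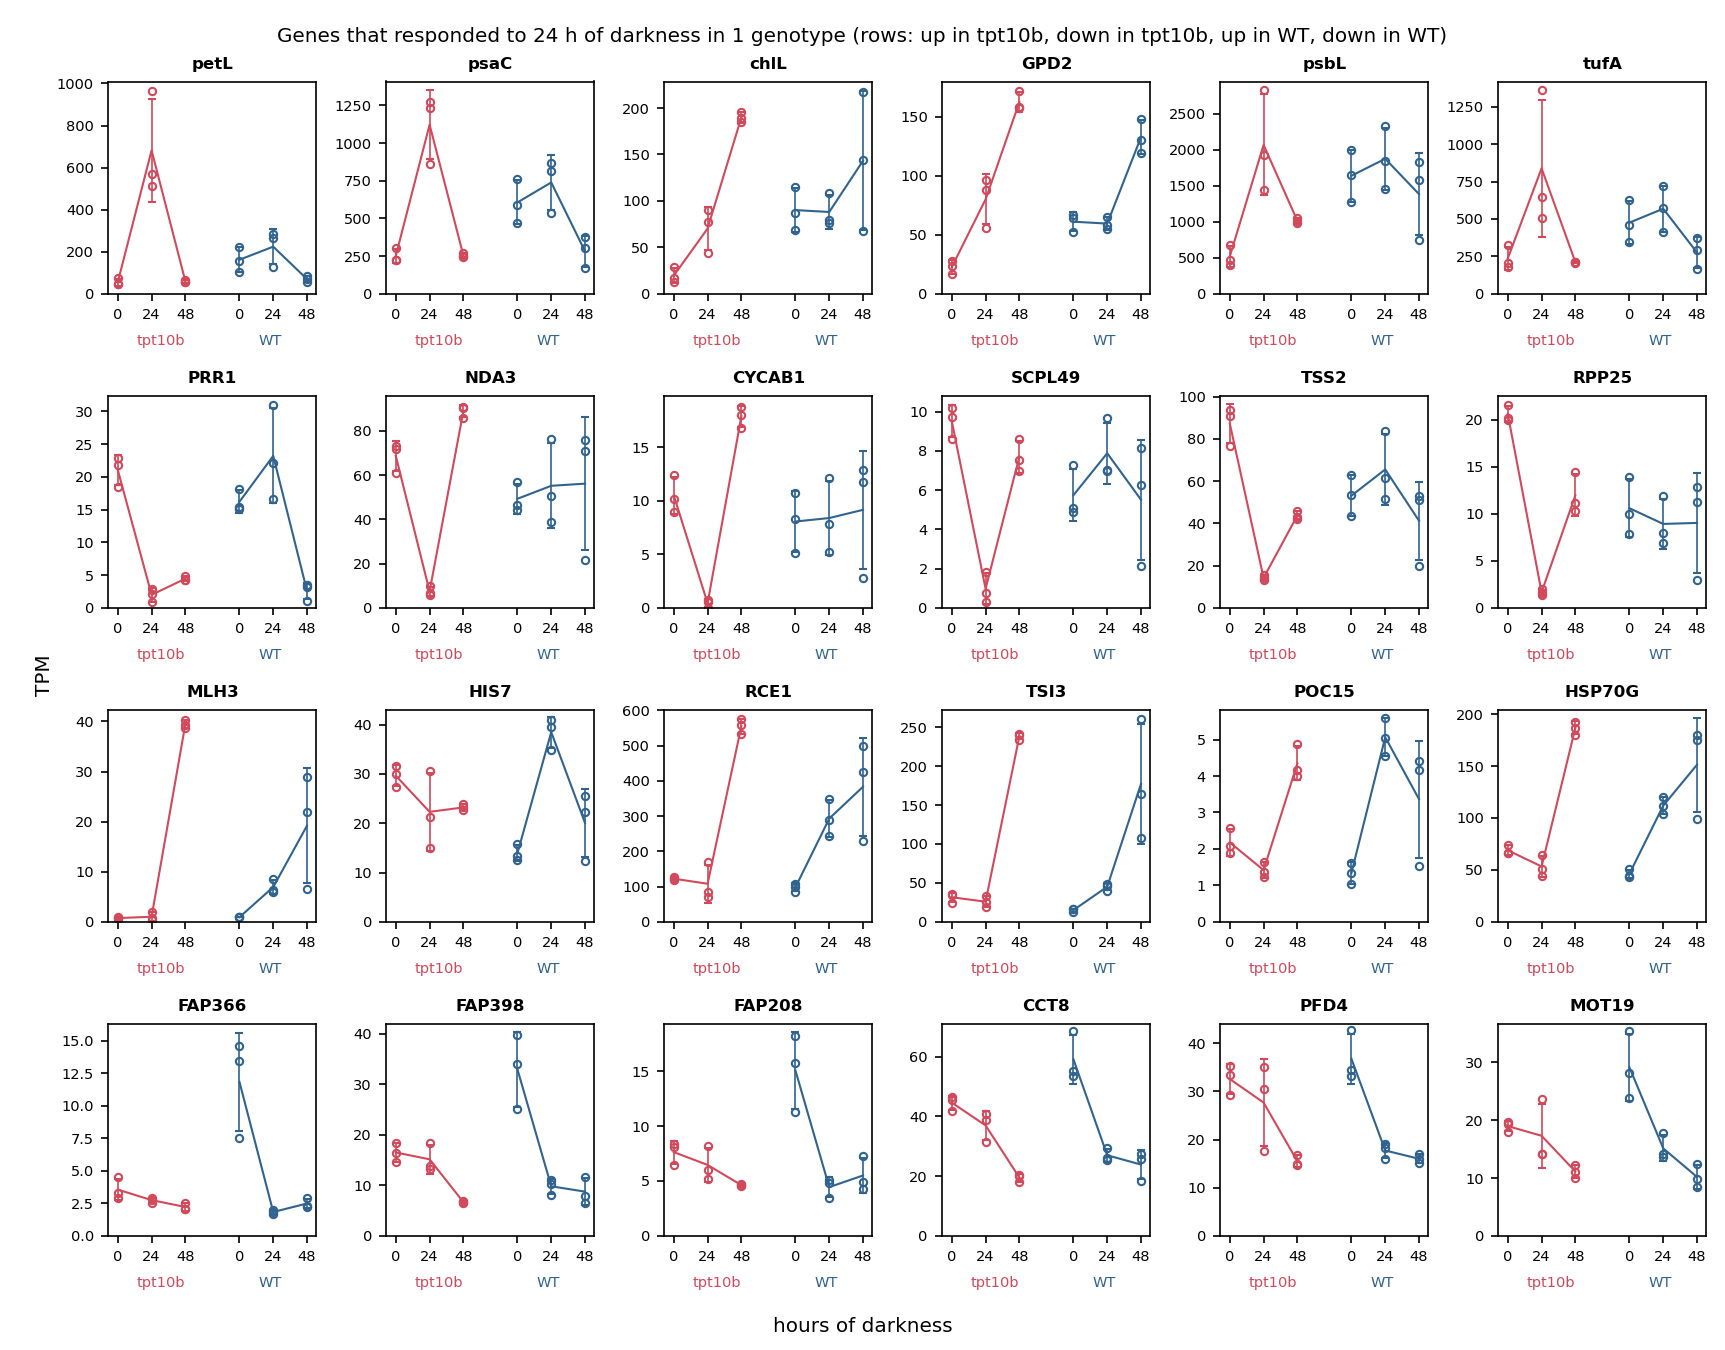
TPM (linear axis from 0) against hours of darkness for the 24 named genes that responded in tpt10b only (upper rows) or in WT only (lower rows), tpt10b left of WT in each panel. Circles are libraries, lines join the means of 3 libraries and bars are SD; between 0 h and 24 h the mean of the responding genotype moves further than that of the other.

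The classes differ in where along the time course the genotypes stood apart. Since the 0 h and 24 h libraries also made the classes, the counts at those times only describe them. At 0 h, where 13.1% of all genes were higher and 9.19% lower in tpt10b than in WT under both scalings, 0 of the 27 genes up in tpt10b and down in WT were higher and 25 lower, and 126 of the 302 reverse genes were higher and 0 lower. At 24 h, against 5.76% higher and 20.4% lower over all genes, these classes had 10 higher and 0 lower, and 1 higher and 260 lower. Of the genes up in tpt10b only, 0 were higher and 56 lower at 0 h, and 46 higher and 0 lower at 24 h, of 104. Of the 839 down in tpt10b only, 286 were higher and 0 lower at 0 h, and 5 higher and 614 lower at 24 h. The WT-only up genes had 40 higher and 0 lower at 0 h, and 0 higher and 120 lower at 24 h, of 165. The 40 WT-only down genes had 0 higher and 35 lower at 0 h, and 9 higher and 1 lower at 24 h.

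The 48 h libraries entered the filter and the estimate of the spread, but not the contrasts that define the classes. At 48 h most members of the classes were not called between the genotypes. Over all genes 3.01% were higher and 1.27% lower in tpt10b than in WT under both scalings (5.2% and 1.39% as deposited, 3.04% and 2.47% rescaled). The class counts of higher and lower genes were 0 and 0 of 27, 26 and 1 of 302, 2 and 2 of 104, 51 and 2 of 839, 16 and 3 of 165, and 1 and 1 of 40, in the order used above. In the classes with a negative interaction, higher calls made up 8.61%, 6.08% and 9.7% of members, above the 3.01% over all genes. Among the 34 named genes, GGT1 was called at 48 h, with 10.7 ± 0.904 TPM in tpt10b and 4.49 ± 2.95 TPM in WT, a difference of 1.27 (adjusted p = 0.0272) as deposited and 1.16 (adjusted p = 0.0257) rescaled. MEI2 had 38.99 ± 2.35 TPM in tpt10b and 23.6 ± 11.6 TPM in WT, a difference of 0.84 that was not called (adjusted p = 0.117). MARS1 had 10.9 ± 0.314 TPM in tpt10b and 7.52 ± 3.59 TPM in WT and ROC66 9.48 ± 0.412 TPM in tpt10b and 6.27 ± 2.96 TPM in WT, with the tpt10b libraries above the WT libraries in both genes but neither difference called. NDA3 had 88.98 ± 2.73 TPM in tpt10b and 56.2 ± 30.1 TPM in WT, again not called (adjusted p = 0.126). MLH3, low in tpt10b at 24 h, had 39.5 ± 0.827 TPM in tpt10b and 19.2 ± 11.4 TPM in WT at 48 h, and its difference between the genotypes was 1.22 (adjusted p = 0.0526), not called. TSI3 had 239 ± 4.21 TPM in tpt10b and 177 ± 77.3 TPM in WT at 48 h, and LCI15 47.6 ± 2.32 TPM in tpt10b and 42.9 ± 17.8 TPM in WT, with overlapping libraries in both genes. WT 48 h replicate 2 stood apart, with a Pearson r across genes of 0.963 to replicate 1 and 0.97 to replicate 3, against 0.991 between replicates 1 and 3 (log2 values; genes are not independent replicates). In a fit without it, added after the data were seen, 1.41% of all genes were higher and 0.808% lower in tpt10b at 48 h under both scalings. The class counts of higher and lower genes were then 0 and 0, 7 and 2, 4 and 1, 15 and 3, 1 and 3, and 1 and 0, in the same order. Higher calls then made up 2.32%, 1.79% and 0.606% of the classes with a negative interaction. Without that library GGT1 was no longer called (a difference of 0.74, limma adjusted p = 0.0753), and 0 of the 34 named genes were (3 at an unadjusted p under 0.05 as deposited, 4 rescaled). The differences as deposited without it were 0.62 for MLH3 (adjusted p = 0.199), 0.36 for MEI2 (adjusted p = 0.533), 0.17 for MARS1, 0.26 for ROC66, 0.27 for NDA3, 0.20 for TSI3 and -0.15 for LCI15. With it, those of MARS1, ROC66, TSI3 and LCI15 were 0.59, 0.62, 0.52 and 0.24.

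Coding length and transcript level moved with the classes. The median coding length was 1329 bases for the genes up in tpt10b and down in WT, 3372 for the reverse, 847.5 for the genes up in tpt10b only, 2226 for those down in tpt10b only, 3627 for those up in WT only and 1478 for those down in WT only, against 1588 for all genes tested. The median TPM in the highest of the 4 groups was 61.5, 3.71, 29.8, 5.32, 3.03 and 8.07 in that order, against 10.03 for all genes. Over all genes, the median rescaled interaction was 0.30, 0.20, 0.01 and -0.18 in 4 equal bins of coding length with the shortest genes first. It was -0.15, -0.08, 0.10 and 0.49 in 4 equal bins of level with the lowest first. The part of length and level in the classes was not tested.

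Gene lists are given by how many of the tested members had an interaction called under both scalings, beside 6.25% higher and 19.2% lower for all genes. Unless marked rescaled, interactions of single genes, here and above, are as deposited, where the median over all genes was -0.65. Rescaled interactions of the named list members were smaller in size for lower calls and larger for higher calls. A low count under both scalings does not show that the members did not differ, since calls could turn with the scaling. A lower call does not by itself mean a lower dark level in tpt10b, since the 0 h levels also enter the interaction. Lower calls as deposited and higher calls rescaled numbered 12 and 22 of 32 genes for plastid ribosomal proteins, 28 and 21 of 63 cell cycle genes, and 35 and 21 of 63 redox genes. Cilia and flagella genes had the most higher calls. Of 442 tested members, 234 were higher (52.94%) and 18 lower, with a median interaction of 0.64 as deposited and 1.43 rescaled. The median dark change of the list was -1.75 in tpt10b and -2.42 in WT as deposited. The genotypes stood further apart at 0 h than in the dark. The list's median of tpt10b minus WT was -0.88 as deposited and -1.38 rescaled at 0 h, and -0.17 and 0.11 at 24 h. DLL3, a dynein light chain-like gene, averaged 34.6 ± 2.14 TPM at 24 h and 115 ± 1.404 TPM at 0 h in tpt10b, and 27.3 ± 2.75 TPM at 24 h and 318 ± 70.6 TPM at 0 h in WT, an interaction of 1.76 (adjusted p = 7.56e-06). FAP41 averaged 0.106 ± 0.07603 TPM at 24 h and 9.31 ± 1.74 TPM at 0 h in tpt10b, and 0.02905 ± 0.0259 TPM at 24 h and 26.6 ± 2.07 TPM at 0 h in WT. The interaction of FAP41 was 1.53 (adjusted p = 1.19e-05). It was barely detected in either genotype at 24 h, so this value mostly reflects the 0 h levels. Its tpt10b minus WT difference was -1.43 at 0 h and 0.10 at 24 h (limma adjusted p = 0.53 at 24 h). FAP381 went against the list, with 2.53 ± 0.766 TPM at 24 h and 18.2 ± 0.9097 TPM at 0 h in tpt10b, and 11.3 ± 0.362 TPM at 24 h and 10.8 ± 0.825 TPM at 0 h in WT (-2.52, adjusted p = 3.87e-06).

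Among 72 genes for cytosolic ribosomal proteins, 22 had higher and 1 had lower interactions, with median interactions of 0.29 as deposited, 1.22 rescaled and 0.13 after quantile normalisation. After quantile normalisation 15 were higher and 6 lower, beside 20.1% higher and 21.7% lower for all genes, so the share of higher calls was then near that of all genes. RPL31 averaged 6356 ± 75.7 TPM at 24 h and 3440.4 ± 139.6 TPM at 0 h in tpt10b, and 5398 ± 197 TPM at 24 h and 4678 ± 268 TPM at 0 h in WT. The interaction of RPL31 was 0.68 (adjusted p = 4.49e-04). RPL12 averaged 6711 ± 692 TPM at 24 h and 4183 ± 236 TPM at 0 h in tpt10b, and 6025 ± 519 TPM at 24 h and 5879 ± 353 TPM at 0 h in WT. The interaction of RPL12 was 0.64 (adjusted p = 0.00168). The exception was RPS27E2, with 95.6 ± 23.4 TPM at 24 h and 53.2 ± 0.544 TPM at 0 h in tpt10b, and 343 ± 98.2 TPM at 24 h and 35.2 ± 6.18 TPM at 0 h in WT. The interaction of RPS27E2 was -2.41 (adjusted p = 2.10e-04). Of 32 nuclear genes for plastid ribosomal proteins 2 were higher and 2 lower, and of 72 for mitochondrial ribosomal proteins 0 were higher and 9 lower. PRPS17 was among the higher (0.57, adjusted p = 0.00822) and PRPL17 among the lower (-2.06, adjusted p = 2.83e-04), and MRPL115 fell in tpt10b only (-1.75, adjusted p = 4.11e-05).

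Of 74 plastid-encoded genes 37 were higher and 0 lower, with median interactions of 1.00 as deposited and 1.88 rescaled. The b6f gene petB averaged 529 ± 206 TPM at 24 h and 61.4 ± 20.2 TPM at 0 h in tpt10b, and 254 ± 73.2 TPM at 24 h and 158 ± 38.98 TPM at 0 h in WT. The interaction of petB was 2.40 (adjusted p = 2.13e-04). Of 7 tested mitochondrion-encoded genes 0 were higher and 4 lower. The complex I gene nad6 averaged 0.497 ± 0.386 TPM at 24 h and 5.43 ± 0.316 TPM at 0 h in tpt10b, and 1.42 ± 1.22 TPM at 24 h and 0.9995 ± 0.194 TPM at 0 h in WT (-2.29, adjusted p = 3.24e-04), and the cytochrome b gene cob averaged 2.05 ± 0.567 TPM at 24 h and 6.29 ± 0.649 TPM at 0 h in tpt10b, and 2.74 ± 1.097 TPM at 24 h and 2.06 ± 0.259 TPM at 0 h in WT. The interaction of cob was -1.52 (adjusted p = 7.22e-04). The cob call was lost after quantile normalisation.

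For nuclear genes of the light reactions the calls turned with the scaling. Of 21 antenna genes 8 were lower and 0 higher as deposited, and 10 higher and 0 lower rescaled. Of 28 photosystem core and electron transport genes 11 were lower and 0 higher as deposited, and 22 higher and 0 lower rescaled. None of either list was called in the same direction under both. Their median dark changes were -4.07 in tpt10b and -3.54 in WT for the antenna, and -2.68 in tpt10b and -2.53 in WT for the photosystem genes, as deposited. Rescaled, the order turned, with -3.43 in tpt10b and -3.84 in WT for the antenna, and -2.04 in tpt10b and -2.82 in WT for the photosystem genes. Of 26 chlorophyll synthesis genes 1 was higher and 3 lower. GUN4, which activates magnesium chelatase, averaged 0.536 ± 0.642 TPM at 24 h and 20.3 ± 1.97 TPM at 0 h in tpt10b, and 2.84 ± 0.559 TPM at 24 h and 11.7 ± 3.46 TPM at 0 h in WT. The interaction of GUN4 was -2.17 (adjusted p = 2.26e-04). CHL27A, for the aerobic cyclase of that pathway, averaged 21.2 ± 5.28 TPM at 24 h and 971 ± 68.5 TPM at 0 h in tpt10b, and 27.7 ± 1.95 TPM at 24 h and 464 ± 90.4 TPM at 0 h in WT. The interaction of CHL27A was -1.48 as deposited (limma adjusted p = 1.45e-04) and -0.57 rescaled (adjusted p = 0.0313). Of 18 photoprotection genes 2 were higher and 2 lower. Among them ELIP9, an early light-induced protein, had an opposite response (-2.19, adjusted p = 9.98e-04), with 0.246 ± 0.225 TPM at 24 h and 1.803 ± 0.0584 TPM at 0 h in tpt10b, and 3.62 ± 1.63 TPM at 24 h and 1.23 ± 0.284 TPM at 0 h in WT.

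Of 43 carbon concentration genes 1 was higher and 8 lower (18.6%), near the share over all genes. The bicarbonate transporter gene HLA3 averaged 3.58 ± 0.272 TPM at 24 h and 8.04 ± 0.562 TPM at 0 h in tpt10b, and 7.41 ± 0.449 TPM at 24 h and 4.12 ± 0.741 TPM at 0 h in WT, an opposite response (-1.71, adjusted p = 3.67e-05). The carbonic anhydrase gene CAH8 fell in tpt10b only, with 7.301 ± 1.59 TPM at 24 h and 49.01 ± 6.38 TPM at 0 h in tpt10b, and 37.00 ± 8.78 TPM at 24 h and 32.7 ± 2.39 TPM at 0 h in WT. The interaction of CAH8 was -2.75 (adjusted p = 5.37e-05). Of 19 Calvin cycle genes 0 were higher and 2 lower, FBA3, an aldolase (-1.88, adjusted p = 6.39e-05), and SBP1 (-1.43, adjusted p = 1.51e-04). Rescaled, their interactions were -0.96 (limma adjusted p = 0.00211) for FBA3 and -0.50 (adjusted p = 0.0272) for SBP1.

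Of 16 starch breakdown genes 7 were lower (43.75%) and of 20 starch synthesis genes 7 were lower (35%), with 0 higher in either. For breakdown, the median of tpt10b minus WT was 0.79 as deposited and 0.24 rescaled at 0 h, and -0.54 and -0.28 at 24 h. For synthesis it was 0.79 and 0.29 at 0 h, and -0.28 and 0.05 at 24 h. GWD1, a glucan water dikinase that phosphorylates starch so that it can be degraded, averaged 11.3 ± 2.995 TPM at 24 h and 38.8 ± 0.811 TPM at 0 h in tpt10b, and 18.1 ± 1.95 TPM at 24 h and 18.2 ± 3.46 TPM at 0 h in WT. The interaction of GWD1 was -1.73 (adjusted p = 2.44e-05). Its partner PWD1, the phosphoglucan water dikinase, averaged 5.65 ± 1.33 TPM at 24 h and 27.5 ± 2.07 TPM at 0 h in tpt10b, and 10.98 ± 1.43 TPM at 24 h and 11.1 ± 2.13 TPM at 0 h in WT. The interaction of PWD1 was -2.11 (adjusted p = 5.02e-05). Both fell in tpt10b only, as did SBE3, a starch branching enzyme (-1.52, adjusted p = 5.53e-05).

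Of 30 fermentation and hydrogen genes 0 were higher and 10 lower (33.33%). The list's median of tpt10b minus WT was 0.86 as deposited and 0.35 rescaled at 0 h, and -0.15 and 0.19 at 24 h. PFR1, the pyruvate:ferredoxin oxidoreductase that feeds hydrogen production, averaged 29.8 ± 9.65 TPM at 24 h and 21.9 ± 1.35 TPM at 0 h in tpt10b, and 27.6 ± 2.24 TPM at 24 h and 1.49 ± 0.386 TPM at 0 h in WT. The interaction of PFR1 was -3.15 (adjusted p = 3.87e-06). At 0 h, PFR1 was 3.21 higher in tpt10b than in WT on the log2 scale as deposited (limma adjusted p = 3.34e-08) and 2.75 higher rescaled (adjusted p = 2.09e-08). FDX5, a ferredoxin induced by anoxia, averaged 1.13 ± 0.513 TPM at 24 h and 239 ± 34.98 TPM at 0 h in tpt10b, and 3.78 ± 1.43 TPM at 24 h and 40.5 ± 12.9 TPM at 0 h in WT. The interaction of FDX5 was -3.72 (adjusted p = 2.70e-05). HCP1, a hybrid cluster protein, fell in tpt10b only, with 1.797 ± 0.265 TPM at 24 h and 11.2 ± 1.21 TPM at 0 h in tpt10b, and 1.73 ± 0.0762 TPM at 24 h and 1.37 ± 0.285 TPM at 0 h in WT (-2.33, adjusted p = 7.69e-06). As deposited, HCP1 was 2.36 higher in tpt10b than in WT at 0 h (limma adjusted p = 1.19e-07), against 0.03 at 24 h (adjusted p = 0.90).

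Of 32 genes of acetate use, the glyoxylate cycle and gluconeogenesis 0 were higher and 6 lower, among them MDH5, a malate dehydrogenase (-2.96, adjusted p = 2.98e-04), and PAT1, a phosphate acetyltransferase of acetate metabolism (-1.87, adjusted p = 2.07e-04). Of 94 nuclear genes of the respiratory chain and ATP synthase 0 were higher and 4 lower under both scalings, but 0 higher and 47 lower as deposited, and 50 higher and 4 lower rescaled. COX17, a copper chaperone of cytochrome c oxidase, fell in tpt10b only, with 10.5 ± 4.88 TPM at 24 h and 53.4 ± 4.92 TPM at 0 h in tpt10b, and 47.1 ± 9.67 TPM at 24 h and 36.6 ± 6.11 TPM at 0 h in WT. The interaction of COX17 was -2.67 (adjusted p = 8.78e-05). Of 8 alternative respiration genes, the alternative oxidase AOX1 was higher (1.31, adjusted p = 5.33e-04) and NDA3 lower. AOX1 averaged 144 ± 26.01 TPM at 24 h and 142 ± 14.7 TPM at 0 h in tpt10b, and 123 ± 16.5 TPM at 24 h and 309.6 ± 77.4 TPM at 0 h in WT. Of the 4 other glucose or triose phosphate translocator genes with a symbol, 0 were called in the same direction under both scalings. As deposited 1 was lower and 0 higher, and rescaled 2 were higher and 0 lower.

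Of 18 tested phosphate uptake and starvation genes 1 was higher and 8 lower (44.44%), with a median interaction of -1.11 as deposited and -0.41 rescaled. The PTB genes code for phosphate transporters of the sodium-coupled type. PTB13 averaged 1.196 ± 0.646 TPM at 24 h and 6.09 ± 0.678 TPM at 0 h in tpt10b, and 9.16 ± 1.29 TPM at 24 h and 4.94 ± 0.312 TPM at 0 h in WT. The interaction of PTB13 was -2.50 (adjusted p = 9.63e-05). PTB7 averaged 2.49 ± 0.337 TPM at 24 h and 5.07 ± 0.579 TPM at 0 h in tpt10b, and 5.52 ± 0.777 TPM at 24 h and 2.91 ± 0.492 TPM at 0 h in WT (-1.54, adjusted p = 9.91e-05), and PTB8 had -1.66 (adjusted p = 1.90e-05). Of 18 nitrogen genes 0 were higher and 4 lower (22.22%), including GDH1, a glutamate dehydrogenase (-1.66, adjusted p = 5.45e-05), and of 47 lipid genes 2 were higher and 4 lower, including PGD1, a galactoglycerolipid lipase (-1.56, adjusted p = 3.56e-05).

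Of 63 cell cycle and replication genes 0 were higher and 13 lower (20.63%), among them MAT3, the retinoblastoma homologue that sets cell size, with an opposite response (-1.39, adjusted p = 2.30e-05), and DP1, a partner of E2F factors (-1.71, adjusted p = 1.63e-05). Of 18 autophagy and TOR genes 0 were higher and 3 lower. RAPTOR1, a subunit of the TOR growth kinase complex, fell in tpt10b only, with 1.73 ± 0.281 TPM at 24 h and 8.63 ± 0.496 TPM at 0 h in tpt10b, and 4.99 ± 1.305 TPM at 24 h and 4.14 ± 1.28 TPM at 0 h in WT (-2.05, adjusted p = 7.07e-05), and the kinase gene TOR1 had -1.83 (adjusted p = 8.34e-05). Of 54 chaperone genes 2 were higher and 7 lower, including BIP2, the endoplasmic reticulum HSP70 (-1.76, adjusted p = 6.10e-05). Of 23 proteasome genes 0 were higher and 2 lower, the regulatory particle subunits RPN1 (-2.09, adjusted p = 1.21e-04) and RPN2 (-1.46, adjusted p = 3.77e-04), both of which fell in tpt10b only. Rescaled, their interactions were -1.23 (limma adjusted p = 0.00129) for RPN1 and -0.62 (adjusted p = 0.0197) for RPN2.

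Of 63 redox and peroxide defence genes 1, NRX3, was higher and 2 were lower. SRX1, a sulfiredoxin that repairs peroxiredoxins, averaged 4.09 ± 0.406 TPM at 24 h and 3.53 ± 0.451 TPM at 0 h in tpt10b, and 28.2 ± 7.63 TPM at 24 h and 4.04 ± 1.16 TPM at 0 h in WT. The interaction of SRX1 was -2.36 (adjusted p = 2.60e-04). Of 17 clock and light signalling genes 0 were higher and 6 lower (35.29%). ROC104 averaged 2.52 ± 0.691 TPM at 24 h and 48.4 ± 2.04 TPM at 0 h in tpt10b, and 18.4 ± 5.86 TPM at 24 h and 31.8 ± 6.04 TPM at 0 h in WT (-3.04, adjusted p = 1.00e-04), and ROC59 19.4 ± 4.13 TPM at 24 h and 22.4 ± 0.622 TPM at 0 h in tpt10b, and 41.4 ± 4.36 TPM at 24 h and 16.1 ± 2.46 TPM at 0 h in WT. The interaction of ROC59 was -1.53 (adjusted p = 2.77e-05). Of the 118 histone genes listed, 17 passed the filter on low values, 1 of them higher, HFO16 (1.40, adjusted p = 0.026). Histone genes are near-identical copies whose reads can be split between them. With TPM as deposited, the HFO16 call was lost without WT replicate 2 at 0 h or 24 h. It was also lost without tpt10b replicate 2 or 3 at 0 h, or tpt10b replicate 1 at 24 h.

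**Figure D4:**
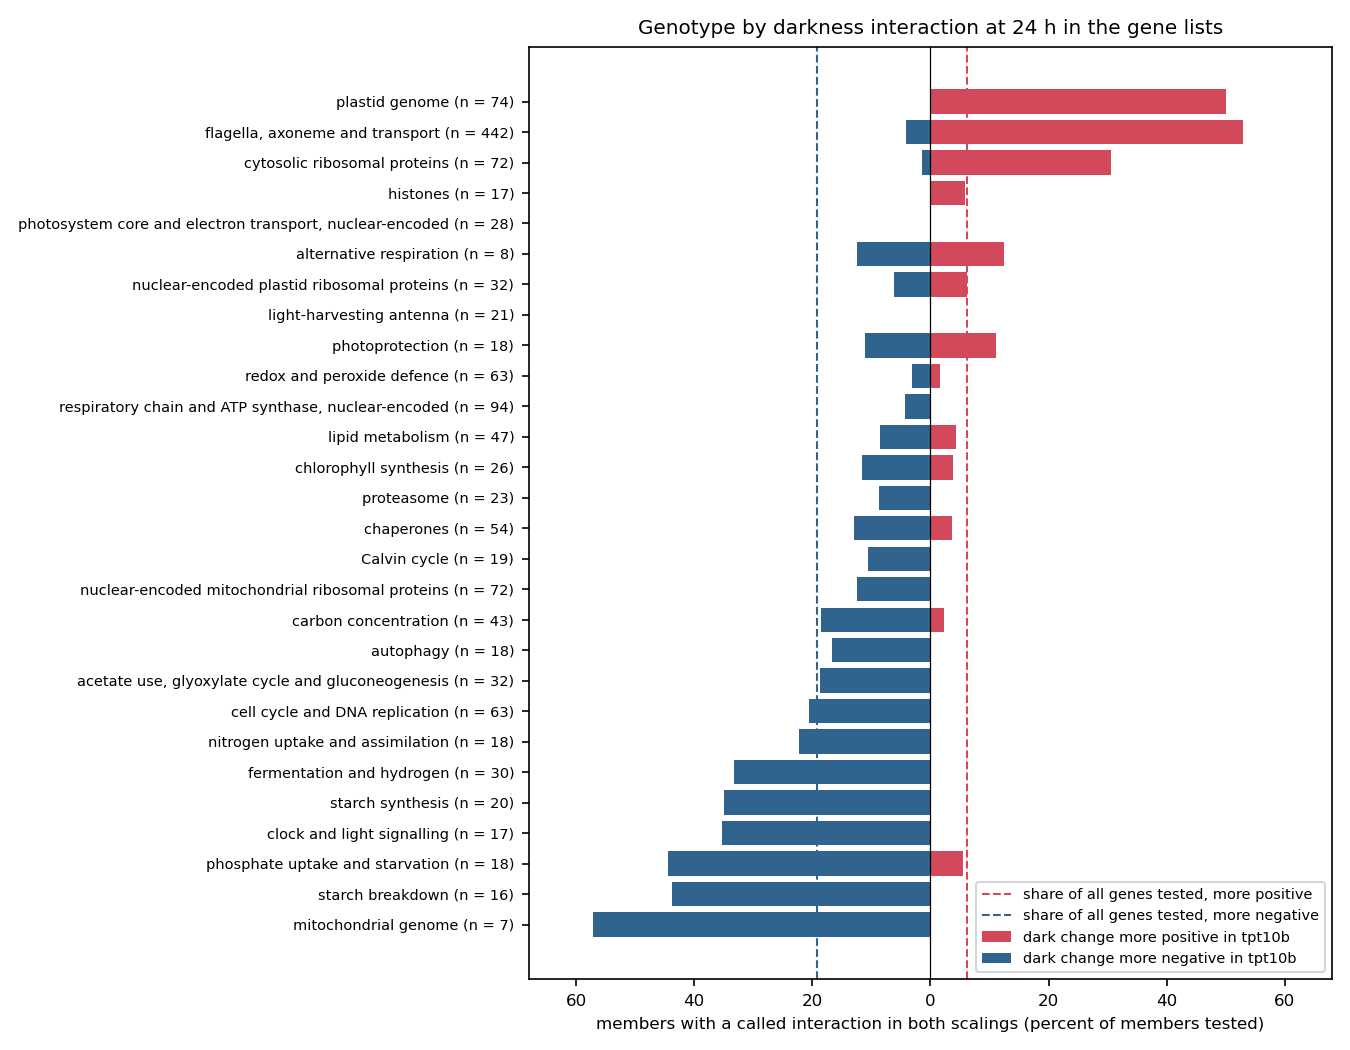
Percent of the tested members of each gene list whose interaction was called higher or lower under both scalings, with dashed lines at 6.25% higher and 19.2% lower for all genes. Lists of fewer than 7 tested genes are left out; flagella and plastid genome genes have the most higher calls, and mitochondrial genome, phosphate and starch breakdown genes the most lower calls.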

How the data were processed

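RNA was measured in 18 libraries, which the sample titles call 3 biological replicates in each of 6 groups. Nothing in the labels says whether these replicates were separate cultures. The p-values set the differences between groups against the spread between these samples. The deposited values used are TPM computed by the authors; HISAT2 2.0.5 and StringTie 1.3.3b are listed, with no role, per the submitters' processing notes. Per the file legend genes follow the CC-4532 v6.1 annotation, and counting tool, strand setting and poly(A) selection are not given in the sources used here. Overlapping and antisense genes can therefore share reads.

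TPM multiplied by coding length (94.45% of lengths were multiples of 3) gave, with 1 factor for each library, whole reads to within 0.01 at 100% of genes. Genes with at least 1 TPM in at least 3 of 18 libraries were tested. Values were log2(TPM + 1), so folds of low genes are understated, and low genes that differ at 0 h can show an interaction with equal fold changes. limma 3.58.1 (R 4.3.3) was fitted to all 18 libraries with 1 mean per group and a variance trend, with Benjamini-Hochberg adjustment over 14731 genes and a threshold of 0.05. Data handling used Python 3.11.15, numpy 2.4.6, pandas 2.3.3 and matplotlib 3.10.9. The fit was tested on simulated data in which 200 genes were given an interaction. It called 8.96% of those changed 1.5-fold, 37.3% of those changed 2-fold and 93.9% of those changed 4-fold. There were 6 false calls among 14368 unchanged genes. Genes whose expected level without an interaction fell at or near 0 were left out of that count. The simulated libraries were scaled by the factors they were made with. The count of false calls therefore does not bear on calls that depend on the scaling. Far more genes were called in the real data, so the shares recovered there may differ. A change that was not called can still be present.

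Up to 6 genes per class with the largest interactions were named, among those with a unique symbol, the same class under both scalings and 5 TPM or more on average in the highest group. Up to 3 members of each of 29 gene lists with the smallest adjusted p and the same call under both scalings, and the targeted locus, were added, and 104 genes qualified in all; not all list members are printed. The members and lists were chosen with earlier results of these data known. RPP symbols (RNase P subunits) were removed from the ribosomal list after symbols were read, and POB and PAP symbols, which also name basal body proteins and poly(A) polymerases, were removed from the proteasome and phosphate lists after values were seen. Alternatives were pseudocounts of 0.1 and 5, other filters, rescaling, quantile normalisation, a replicate block, a fit on the 4 groups, voom on recovered reads, other response limits and each library left out. The class counts under both scalings with a library left out, and the 48 h values without WT 48 h replicate 2, were added after the data were seen.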

Additional observations from a re-analysis of the deposited data

Results flagged for a closer look

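The dark response differed between tpt10b and WT for 9456 genes as deposited, by a test of the difference itself. The 10 named genes with opposite responses were also singled out because the genotypes moved in opposite directions. Their interactions, tpt10b minus WT on the log2 scale, were 2.63 for NRX3, 2.28 for CGL91, 1.78 for ALF1 and 1.14 for FAP334. They were -3.11 for MEI2, -2.88 for MARS1, -2.60 for LCI15, -2.59 for GGT1, -2.51 for CPL2 and -2.49 for ROC66. At 48 h, GGT1 alone among them differed between the genotypes past the threshold, and it lost that call without WT 48 h replicate 2 (adjusted p = 0.0753). The lower number of genes with reads and the larger ribosomal and plastid shares in the dark tpt10b libraries moved with these results, and their part was not tested.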

How the results depend on the processing

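The 9456 interaction calls became 5471 with a filter at a mean of 5 TPM and 6159 after quantile normalisation. Higher calls, 921 as deposited, became 3740 after rescaling and 2966 after quantile normalisation; lower calls, 8535, became 2825, 3193 and, with the filter, 4770. The tpt10b-only genes, 3042, became 1936 after rescaling, 1547 with the filter, 1664 after quantile normalisation and 1569 with a minimum response of 1. The WT-only genes, 1921, became 1016 with the filter, 1280 after quantile normalisation and 613 with the minimum response. The opposite genes, 1411, became 561 after rescaling, 695, 481 and 61 under the same 3 settings. The filter tests fewer genes, and the minimum response asks for more; otherwise the cause was not tested.

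With each library left out in turn, calls ranged over 8493 to 9799, higher 767 to 1018, lower 7690 to 8781, tpt10b-only 2851 to 3164, WT-only 1654 to 2048 and opposite 1014 to 1752. Under both scalings the opposite, tpt10b-only and WT-only counts ranged over 230 to 408, 832 to 1002 and 167 to 297. The 6 classes, in the order of the report, ranged over 20 to 37, 210 to 376, 91 to 128, 731 to 892, 127 to 243 and 33 to 61. The difference of the targeted locus at 24 h ranged over -4.07 to -3.67.

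Replicate numbers did not pair the samples: 4 of 18 correlations between deviations of same-numbered libraries were over 0.1 (-0.393 to 0.193), and for 2 of 12 libraries the best match had the same number. With the replicate block there were 9279 calls, 886 higher and 8393 lower, with 3030 tpt10b-only, 1899 WT-only and 1348 opposite genes. No named gene changed direction under any alternative run, where libraries were left out on TPM as deposited. The interaction calls of PLAP8 and cob were lost after quantile normalisation, and those of ELIP8, HFO16, MOT19 and PFD4 with some libraries left out. That of the targeted locus was lost after rescaling, quantile normalisation and with a pseudocount of 5. How depth bears on calls of genes near 1 TPM was not tested.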
